A study of Mus musculus with 12 samples.

Results

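The 4 cation-chloride cotransporter genes Slc12a2, Slc12a4, Slc12a5 and Slc12a7 were taken by name from the 23513 genes counted in nuclei of the embryonic mouse cortex, out of 9 genes of the Slc12 family in the tables. Single nucleus RNA sequencing (snRNAseq), which counts RNA molecules of each nucleus by unique molecular identifiers (UMIs), gave 50550 nuclei of 11 C57BL/6J embryos in 25 clusters. Pregnant dams received intraperitoneal injections of saline or of ethanol (EtOH, 2.5 g/kg) once daily for 6 days, from embryonic day (E) 8.5 to E13.5, and cortices were collected at E14.5, which the labels call embryonic day 14. Both groups thus had the same strain, injections and age, and differed in the agent. The 5 saline embryos came from dams S1 and S2 and the 6 EtOH embryos from dams E1 and E2, with S1 and E1 in batch 1 and S2 and E2 in batch 2, so that littermates share a dam and each group rests on 2 dams.

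These transporters move chloride together with cations across the plasma membrane. Slc12a2 encodes NKCC1, which brings sodium, potassium and chloride into the cell, while Slc12a5 encodes KCC2, the neuronal potassium-chloride cotransporter that carries chloride out. Slc12a4 and Slc12a7 encode KCC1 and KCC4, potassium-chloride cotransporters of many tissues with a part in cell volume regulation. In immature neurons high NKCC1 and low KCC2 keep intracellular chloride high, so that GABA depolarizes the cell, and the rise of KCC2 during maturation lowers it. What follows are RNA counts of nuclei, which say nothing of protein, phosphorylation or chloride.

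A set of 3 promoter windows is shown because the genes they belong to had the widest ranges over clusters. Each runs from 250 bases before to 50 after a RefSeq start site on GRCm38.p6, on the plus strand, and capitals mark E-boxes (CANNTG, a palindromic pattern, so that both strands are searched at once), the letters bound by basic helix-loop-helix factors.
Slc12a5, upstream start, chr2:164960596-164960895: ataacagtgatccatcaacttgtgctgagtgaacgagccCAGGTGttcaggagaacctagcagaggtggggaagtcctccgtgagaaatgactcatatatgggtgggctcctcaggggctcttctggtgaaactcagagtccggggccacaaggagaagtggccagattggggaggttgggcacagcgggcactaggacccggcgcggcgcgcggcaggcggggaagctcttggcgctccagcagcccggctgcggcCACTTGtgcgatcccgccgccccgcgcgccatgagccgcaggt
Slc12a5, downstream start, chr2:164967738-164968037: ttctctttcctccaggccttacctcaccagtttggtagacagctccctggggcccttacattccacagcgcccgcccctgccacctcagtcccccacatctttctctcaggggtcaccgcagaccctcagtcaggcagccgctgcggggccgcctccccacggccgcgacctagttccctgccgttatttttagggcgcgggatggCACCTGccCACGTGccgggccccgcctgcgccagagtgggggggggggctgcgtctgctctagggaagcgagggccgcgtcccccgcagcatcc
Slc12a7, upstream start, chr13:73763410-73763709: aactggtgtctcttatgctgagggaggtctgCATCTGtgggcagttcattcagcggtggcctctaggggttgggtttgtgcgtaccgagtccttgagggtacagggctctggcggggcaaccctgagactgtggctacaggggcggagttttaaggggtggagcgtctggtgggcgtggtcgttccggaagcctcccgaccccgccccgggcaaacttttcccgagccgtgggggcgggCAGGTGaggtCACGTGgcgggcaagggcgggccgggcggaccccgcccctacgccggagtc
The upstream and downstream Slc12a5 windows each held 2 E-boxes and the Slc12a7 window held 3, and 72.3% of all 32851 promoter windows held at least 1. The 3 windows were 63.7%, 68.3% and 66.7% G or C, against a median of 52.7% over all windows. The letters GCGTGGGCG of EGR factors were in none of the 3 windows and in 0.612% of all windows, and CANATG, an E-box form of NeuroD factors, was once in the printed Slc12a7 window, on the strand opposite to the one printed, and in 39.4% of all windows (both strands searched for each). A second RefSeq start of Slc12a7 has a window at chr13:73763447-73763746 that overlaps the printed one and held 2 E-boxes and no CANATG. These matches describe the letters only, since no data on factor binding were used.

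Of the 4 genes, Slc12a2 was the most detected, with 38068 UMIs and at least 1 UMI in 41.7% of nuclei. Slc12a5 had 8402 UMIs (11.6% of nuclei), Slc12a7 6725 (10.8%) and Slc12a4 1065 (1.91%). Levels are given as CPM, in which the UMIs of a gene in 1 embryo and cluster are scaled to a library of 1000000 UMIs. An embryo was left out of a cluster where it had fewer than 10 nuclei, which removed 9 of 275 pairs. Since clusters were made from the expression of the same nuclei, levels by cluster are a description with no test, and errors are SDs over embryos. Over all nuclei, Slc12a2 had 86.4 CPM, Slc12a5 19.1, Slc12a7 15.3 and Slc12a4 2.42. How far UMI counts depend on gene length was not tested. Per kilobase of gene span the order was the same, with 1.27 CPM for Slc12a2, 0.490 for Slc12a5, 0.182 for Slc12a7 and 0.107 for Slc12a4. In RNA summed over nuclei, fewer nuclei with a transcript and fewer transcripts per nucleus cannot be told apart.

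EtOH libraries were shallower, with 14078316 to 38034349 UMIs against 44017566 to 83061737 in saline libraries, and with median UMIs per nucleus of 4072 to 6911 against 6325 to 9051. The major type markers were highest where their names place them: Hes1 in Cluster 2 of the radial glial cells (RGCs), Eomes in Cluster 6 of the intermediate progenitor cells (IPCs), Neurod2 in Cluster 9 of the projection neurons (PN) and Gad2 in Cluster 23 of the interneurons (Int). The remaining 3 clusters (Other) are Rarb striatal interneurons (Cluster 11), Reln Cajal-Retzius cells (Cluster 14) and unknown neurons (Cluster 19). The calls over all genes after EtOH hung on single embryos: in the 5 major cell types 2528 became 11363 without the saline embryo S2-4 and 0 without E2-2, S1-2 or S2-1, and in clusters 1721 became 19059 without S2-4 and 89 without S1-1. The shares of all genes called that stand beside the results rest on these counts. Of 50226 barcode sequences, 314 occurred in at least 2 libraries.

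Slc12a2, the chloride importer, had UMIs in every cluster and varied least among the 3 better detected genes, with a 2.99-fold span of cluster means. It was highest in interneuron precursors (Cluster 3, an RGC cluster), at 172 ± 19.1 CPM (SD, n = 11), with the 11 embryos between 145 and 195 CPM. Cluster 13, an Int cluster, followed at 155 ± 34.9 CPM, and the mean difference between these clusters within an embryo, 17.05 ± 28.4 CPM, did not exceed its spread. Caudal subcortical PN (Cluster 16) had 117 ± 19.5 CPM, and rostral subcortical PN (Cluster 4) were lowest at 57.4 ± 5.99 CPM. None of the 24 neighbouring pairs in the order of levels differed by more than 1 SD of the within-embryo difference, so neighbours were not separated beyond the spread between embryos. That spread does not measure the error of a mean difference.

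Per type the level of Slc12a2 was 120 ± 10.6 CPM for RGCs, 91.4 ± 11.9 in Other, 79.4 ± 7.67 in Int, 72.05 ± 5.72 in PN and 67.1 ± 6.81 in IPCs. RGCs stood above PN in 11 of 11 embryos, by 0.73 ± 0.21 on the log2(CPM + 1) scale, and above IPCs in 11 of 11, by 0.83 ± 0.21. PN and IPCs differed by less than their spread, with IPCs higher in 3 of 11 embryos. Clusters within a type differed too, with means from 96.7 to 172 CPM among the 5 RGC clusters, with Cluster 3 the highest. They ran from 65.9 to 155 CPM among the 7 Int clusters and from 57.4 to 117 CPM among the 8 PN clusters. The level of a type, for each of the 4 genes, thus also moves with the shares of its clusters in an embryo.

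Slc12a5, the chloride extruder, differed widely between clusters. The unknown neurons of Cluster 19 were highest at 83.4 ± 18.2 CPM (n = 11), with embryos from 58.6 to 117 CPM. Cluster 7 (Int 1) had 73.1 ± 15.5 CPM, Cluster 25 (PN 3) 65.5 ± 26.6 (n = 7) and Cluster 15 (Int 3) 61.1 ± 18.8. Neighbours among these 4 clusters were not separated beyond their spread, and the step from Cluster 15 to Cluster 13 (42.9 ± 6.82 CPM) was the only one of 24 neighbouring steps to exceed it, with Cluster 15 higher in 10 of 11 embryos by 18.2 ± 17.3 CPM.

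The low end of Slc12a5 was held by PN as well. Early PN (Cluster 9) had 2.75 ± 1.15 CPM and callosal PN (Cluster 1) 3.18 ± 0.90 CPM, and both means lay below those of the 5 RGC clusters, which were between 6.48 and 10.4 CPM. Caudal subcortical PN (Cluster 16) had 4.09 ± 2.32 CPM and rostral subcortical PN (Cluster 4) 8.996 ± 2.58, while the second callosal PN cluster (Cluster 22) reached 22.3 ± 9.03 CPM and PN 2 (Cluster 24) 27.5 ± 18.6 (n = 10). PN clusters thus ran from 2.75 to 65.5 CPM in Slc12a5. Among the 7 Int clusters, late interneuron precursors (Cluster 10) were lowest at 7.75 ± 2.34 CPM.

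**Figure D1:**
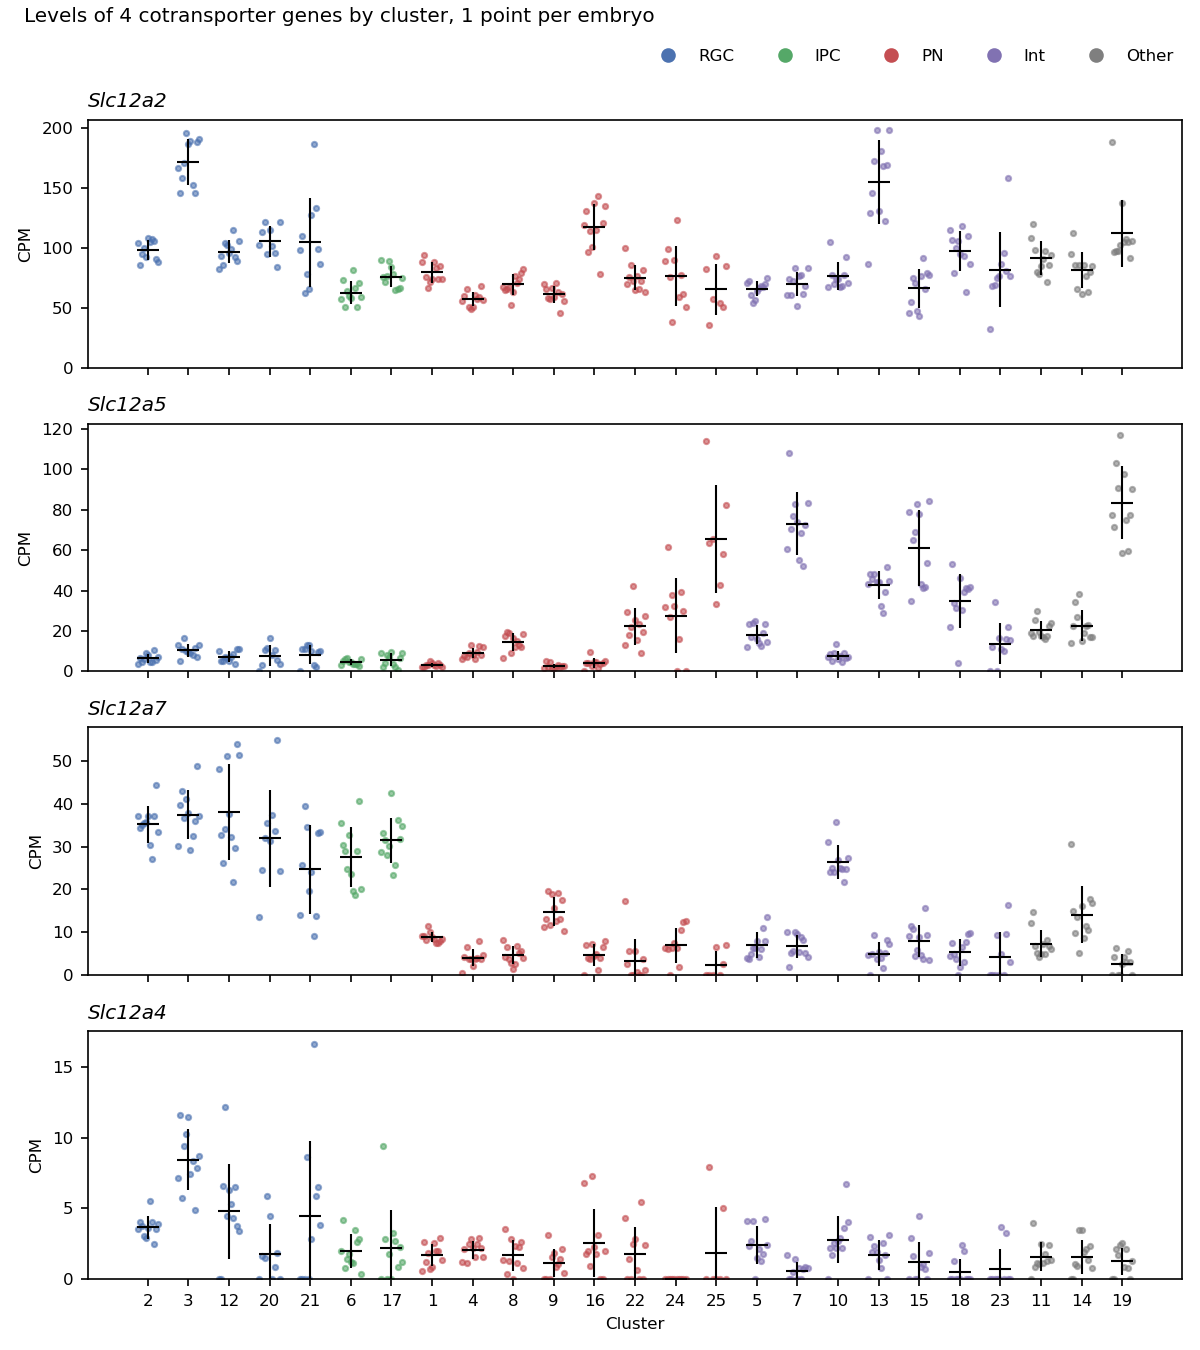
CPM of each gene (y axis) in each of 25 clusters (x axis, grouped and coloured by major cell type), with 1 point per embryo and the mean ± SD in black. Slc12a2 lies between 57.4 and 172 CPM in cluster means, Slc12a5 rises in some Int, PN and Other clusters, and Slc12a7 is highest in RGC and IPC clusters.

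The summed level of Slc12a5 reached 39.2 ± 7.12 CPM in Int, 31.6 ± 7.31 in Other, 9.99 ± 2.06 in PN, 8.12 ± 1.58 in RGCs and 4.95 ± 1.502 in IPCs. Int stood above RGCs in 11 of 11 embryos, and the difference of RGCs from Int was -2.14 ± 0.25 on the log2(CPM + 1) scale. RGCs and PN were close, with a difference of RGCs from PN of -0.26 ± 0.19 on the same scale and RGCs higher in 2 of 11 embryos. That small difference changed sign, to 0.03, when nuclei were thinned to 2000 UMIs, and widened to -0.90 when the clusters of a type had equal weight.

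Slc12a7 (KCC4) was highest in progenitor clusters. Non-mitotic RGCs (Cluster 12) were highest at 38.1 ± 11.2 CPM (n = 11), next to interneuron precursors (Cluster 3) at 37.5 ± 5.75 and RGC 1 (Cluster 2) at 35.2 ± 4.36 CPM. Late interneuron precursors (Cluster 10), an Int cluster, had 26.4 ± 3.89 CPM, inside the range of the RGC and IPC clusters (24.7 to 38.1 CPM). Early PN (Cluster 9) had 14.8 ± 3.46 CPM and callosal PN (Cluster 1) 8.81 ± 1.17. The low end was not resolved: PN 3 (Cluster 25) had 2.31 ± 3.23 CPM (n = 7) from 6 UMIs and Cluster 19 had 2.65 ± 2.37, and the lowest place went to Cluster 22 with pooled counts and to Cluster 19 with at least 20 nuclei per embryo.

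RGCs had 35.3 ± 4.37 CPM of Slc12a7 and IPCs 28.8 ± 5.24, against 9.53 ± 1.93 in Int, 8.87 ± 3.62 in Other and 6.46 ± 0.70 in PN. On the log2(CPM + 1) scale RGCs stood above PN by 2.28 ± 0.19 and IPCs above PN by 1.98 ± 0.25, both in 11 of 11 embryos. Over the 25 clusters, the mean levels of Slc12a5 and Slc12a7 had Pearson r = -0.59 on the log2 scale (Spearman -0.57). This describes clusters that share embryos, libraries and depth.

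**Figure D2:**
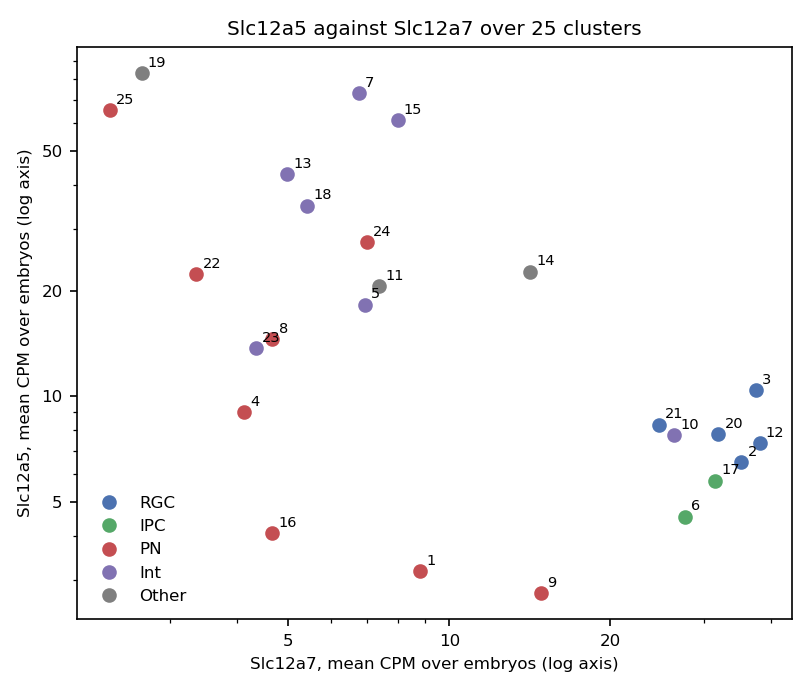
Mean CPM over embryos of Slc12a5 (y axis) against Slc12a7 (x axis), both log axes, with 1 numbered point per cluster, coloured by major cell type. RGC and IPC clusters and Cluster 10 lie together at high Slc12a7, Clusters 19, 25, 7 and 15 lie at high Slc12a5, and Clusters 1, 9 and 16 have little Slc12a5 without reaching the Slc12a7 of RGCs.

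Slc12a4 (KCC1) was sparse. Cluster 3 was highest at 8.45 ± 2.17 CPM, followed by Cluster 12 at 4.80 ± 3.35, and PN 2 (Cluster 24) had 1 UMI in all its nuclei, from an embryo with fewer than 10 nuclei there, so that its mean is listed at 0. RGCs had 5.14 ± 1.00 CPM, and the other types 1.496 to 2.04 CPM. RGCs were above PN in 11 of 11 embryos, by 1.14 ± 0.34 on the log2(CPM + 1) scale. Slc12a4 overlaps Gm16156 on the opposite strand, which had 2.14 CPM. Counting was done by Cell Ranger with its defaults on 3' chemistry, and whether reads of the pair were kept apart was not tested here.

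The ratio of Slc12a2 to Slc12a5 UMIs within an embryo needs no scaling of libraries. To each count 0.5 was added, which weighs more where counts are few, as in shallower libraries. Caudal subcortical PN (Cluster 16) had a geometric mean of 26.6, callosal PN (Cluster 1) 24.1 and early PN (Cluster 9) 19.9. These 3 ratios divide by few Slc12a5 UMIs, 54, 102 and 43 over all embryos, at shares of nuclei that are not told from background below. Their size and order are not resolved, and in Cluster 16 the embryo E1-1 had 35 UMIs of Slc12a2 and 0 of Slc12a5. The RGC and IPC clusters had means between 12.5 and 16.5 that also divide by low Slc12a5 counts, and Cluster 21 (52 Slc12a5 UMIs) ranged over embryos from 4.56 to 49.4. At the other end, Cluster 7 had 0.964, with 6 of 11 embryos below 1, Cluster 25 had 1.01 (4 of 7 below 1), Cluster 15 had 1.10 (4 of 11) and Cluster 19 had 1.34 (2 of 11).

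Per type the ratio had geometric means of 14.8 for RGCs, 13.6 for IPCs, 7.31 for PN, 2.93 for Other and 2.05 for Int, with embryos from 11.9 to 19.9, 8.85 to 22.3, 4.79 to 11.99, 1.84 to 4.96 and 1.42 to 3.06. RGCs and IPCs overlapped, and the ratios of RGCs, IPCs and PN divide by low Slc12a5 counts that were not told from background. The ratio compares UMIs of different genes, whose capture may differ, so a value of 1 marks equal counts and need not mean equal transcript numbers. Over 25 clusters the levels of Slc12a2 and Slc12a5 were nearly unrelated (Pearson r = 0.03).

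**Figure D3:**
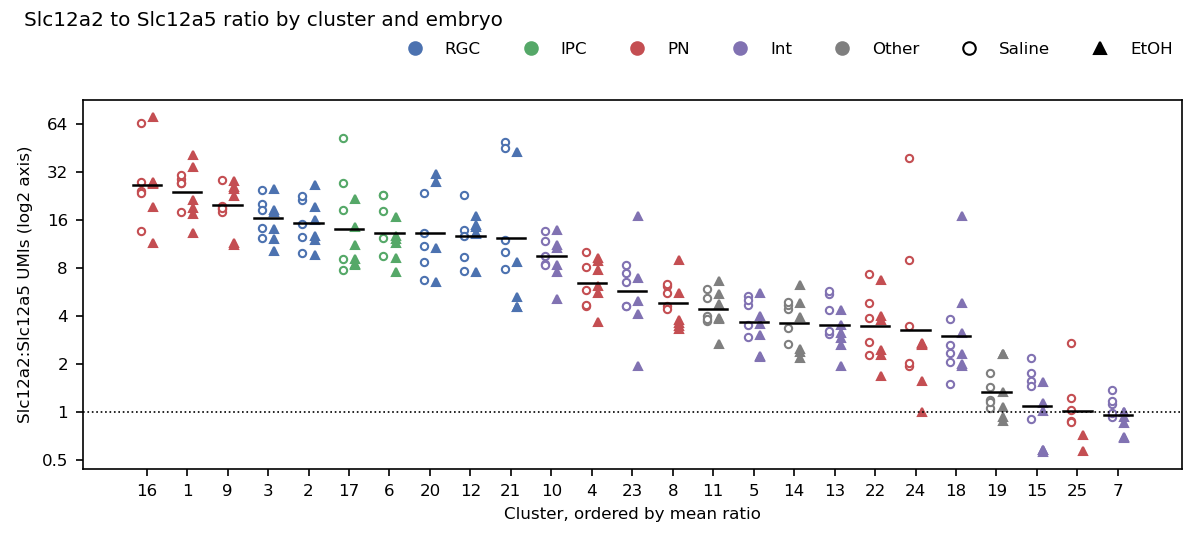
Ratio of Slc12a2 to Slc12a5 UMIs (y axis, log2 axis, 0.5 added to each count) by cluster (x axis, ordered by mean), with saline embryos as open circles, EtOH embryos as filled triangles, colours for major cell types and a black bar for the geometric mean. Ratios fall from 26.6 in Cluster 16, where few Slc12a5 UMIs were counted, to 0.964 in Cluster 7, and saline and EtOH embryos lie among each other in most clusters.

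Shares of nuclei with a UMI depend on depth, so each nucleus was thinned to 2000 UMIs, which left out 387 shallower nuclei. At this depth Slc12a2 was found in 20.6% ± 1.84 of RGCs, 13.9% ± 1.57 of Int and 12.6% ± 1.10 of PN (SD over 11 embryos), against 46.4%, 38.5% and 38.4% without thinning. Slc12a5 was found in 6.11% ± 1.76 of Int, 1.496% ± 0.32 of PN, 1.57% ± 0.35 of RGCs and 0.916% ± 0.50 of IPCs. Background RNA was not measured. IPCs, as progenitors, are not known for KCC2, and their share serves here as a reference only. Their median was 5977 UMIs per nucleus before thinning, against 7502 in Int. The shares in early PN (Cluster 9, 0.431%), callosal PN (Cluster 1, 0.522%) and caudal subcortical PN (Cluster 16, 0.641%) were below the IPC share, which is thus not a floor. Shares this low cannot be told from background here and cannot be read as expression. Cluster 7 (11.6%) and Cluster 19 (15.5%) were above the IPC share. RGCs are progenitors too, and neither PN as a whole nor late interneuron precursors (Cluster 10, 1.33%) were above the RGC share of 1.57%. Both types mix clusters: RGCs include the interneuron precursors of Cluster 3 (10.4 CPM of Slc12a5), and PN clusters ran from 2.75 to 65.5 CPM. Slc12a7 was found in 7.05% ± 1.01 of RGCs and 1.42% ± 0.29 of PN.

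Of all 50550 nuclei, 17945 had UMIs of Slc12a2 and none of Slc12a5, 2764 had Slc12a5 alone of the pair, 3119 had both and 26722 had neither. After thinning, Slc12a5 was found in 6.65% ± 2.12 of Int nuclei with a Slc12a2 UMI and in 6.00% ± 1.78 of those without, with the first share higher in 6 of 11 embryos. Detection of one gene thus told little of the other within interneurons at this depth.

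The genes whose cluster pattern was most like that of each member were named by Pearson r of log2 mean levels over the 25 clusters, among 8993 genes at 10 CPM or more. For Slc12a5 these were Tmem130, Snhg11, Trank1, Far2 and Dtd1 (r from 0.92 to 0.94). For Slc12a7 they were Gli2, Cdc14a, Ddx52, Nsd1 and Setd5 (0.97 to 0.98). Slc12a2 was most like Glud1, Slc4a4, Vegfa, Prr3 and Fam3c (0.64 to 0.75), where Slc4a4 is a sodium bicarbonate cotransporter, and Slc12a4 most like Gm35188, Tmem55a, Arhgef26 and Cst3 (0.80 to 0.82). The names depend on the measure: by Spearman rho Setd5 was in place 321 and Gli2 in place 33 for Slc12a7, and Gm35188 was in place 120 for Slc12a4, while Cdc14a for Slc12a7 and Glud1 for Slc12a2 were in place 1. The clusters share libraries and depth, and the resemblance is a description.

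The comparison of EtOH with saline asked whether the cotransporters differed after exposure, in each cluster and type. By edgeR's quasi-likelihood test, 0 of 58 tests of the members in clusters and 0 of 18 in major cell types were called, at an adjusted p under 0.05 over all genes of the cluster or type with a change of more than 25% up or 20% down. Over all genes, 0.792% of tests in clusters and 3.75% in major cell types were called. DESeq2 called 1 of the members' tests in clusters and 0 in types, against 2.61% and 8.02% of tests over all genes. An unadjusted p under 0.05 was reached by 4 of the 58 tests in clusters, all of Slc12a2, against 17.4% of tests over all genes, and by 0 of 18 in types, against 27.7%. Slc12a2 passed the filter on low counts in all 25 clusters, Slc12a7 in 17, Slc12a5 in 14 and Slc12a4 in 2.

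Slc12a2 came nearest to a call in Cluster 8 (PN 1). The saline embryos had 70.6, 74.3, 76.4, 79.3 and 82.0 CPM, and the EtOH embryos ran from 52.6 to 67.2 CPM with a median of 65.2. Every EtOH embryo was below every saline embryo, which held for 0.94% of the genes tested in this cluster. The log2 fold change was -0.32 ± 0.08 (SE, edgeR adjusted p = 0.0423), a fold of 0.803 that missed the fold threshold of 0.8 by little. With no fold threshold it was the only one of the 58 member tests to pass, where 0.869% of tests over all genes did. The adjusted p was 0.0573 with batch as a term, 0.187 with counts summed per dam and 0.462 with libraries thinned to the smallest, and when each embryo was left out in turn it ran from 0.0513 to 0.121, except without the saline embryo S2-4, where it was 0.0129. Microglia markers (5 of 5 found, none at 0, P2ry12 leading) summed to 14.97 to 32.5 CPM in saline embryos and 27.8 to 37.1 CPM in EtOH embryos over all nuclei. The exact permutation p was 0.00649, not adjusted over the marker lists read. Within Cluster 8 they summed to 11.04 to 20.7 CPM in saline and 16.8 to 27.3 CPM in EtOH embryos. Choroid plexus markers summed there to 7.36 to 36.6 CPM in saline and 1.37 to 17.9 CPM in EtOH embryos. The part of either list in this result was not tested.

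In the other tests Slc12a2 had log2 fold changes of -0.43 ± 0.15 in Cluster 15 (edgeR adjusted p = 0.183), -0.58 ± 0.24 in Cluster 21 (0.315) and -0.20 ± 0.09 in Cluster 5 (0.174), none of them past the threshold. Cluster 21, the cortical hem RGCs, also had the highest level of choroid plexus markers among the clusters (6 of 6 found, none at 0, Ttr leading). They summed there to 903 to 1959 CPM in saline and 469 to 1557 CPM in EtOH embryos, and over all nuclei to 22.1 to 100.03 and 10.1 to 35.5 CPM (exact permutation p = 0.0498, not adjusted over marker lists). Their part in the Slc12a2 values of Cluster 21 was not tested. The lists of endothelium, pericytes, meningeal fibroblasts, oligodendrocyte precursors and thalamus had exact permutation p from 0.169 to 0.814 over all nuclei. In Cluster 15, an Int cluster, saline embryos had 65.6 to 91.3 CPM and EtOH embryos 43.4 to 74.8 CPM, which overlapped. By type the log2 fold change of Slc12a2 was -0.17 ± 0.08 in Int, -0.13 ± 0.07 in PN, -0.12 ± 0.08 in RGCs, -0.08 ± 0.10 in IPCs and 0.04 ± 0.09 in Other, with edgeR adjusted p from 0.181 to 0.858. These values depend on the scaling. With library totals alone they were -0.10 in Int, -0.08 in PN, -0.04 in RGCs, -0.005 in IPCs and 0.10 in Other. In Int the saline embryos ran from 68.4 to 88.2 CPM and the EtOH embryos from 68.5 to 86.8 CPM, and the groups overlapped. The lowest saline value was that of S2-1, singled out after it was seen, with the other saline embryos at 83.8 to 88.2 CPM. Cluster 7 held 942 of the 2272 Int nuclei of S2-1, at 61.1 CPM of Slc12a2, and its part was not tested. Within batches the log2 ratio of mean CPM + 1 in Int was -0.16 in batch 1 and -0.07 in batch 2. In RGCs it was -0.29 in batch 1 and 0.10 in batch 2, so that the batches went opposite ways there. Cluster 3, highest in Slc12a2, held 197 of 1383 RGC nuclei in S2-2 and 870 of 1696 in S2-1, and its part in these values was not tested.

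**Figure D4:**
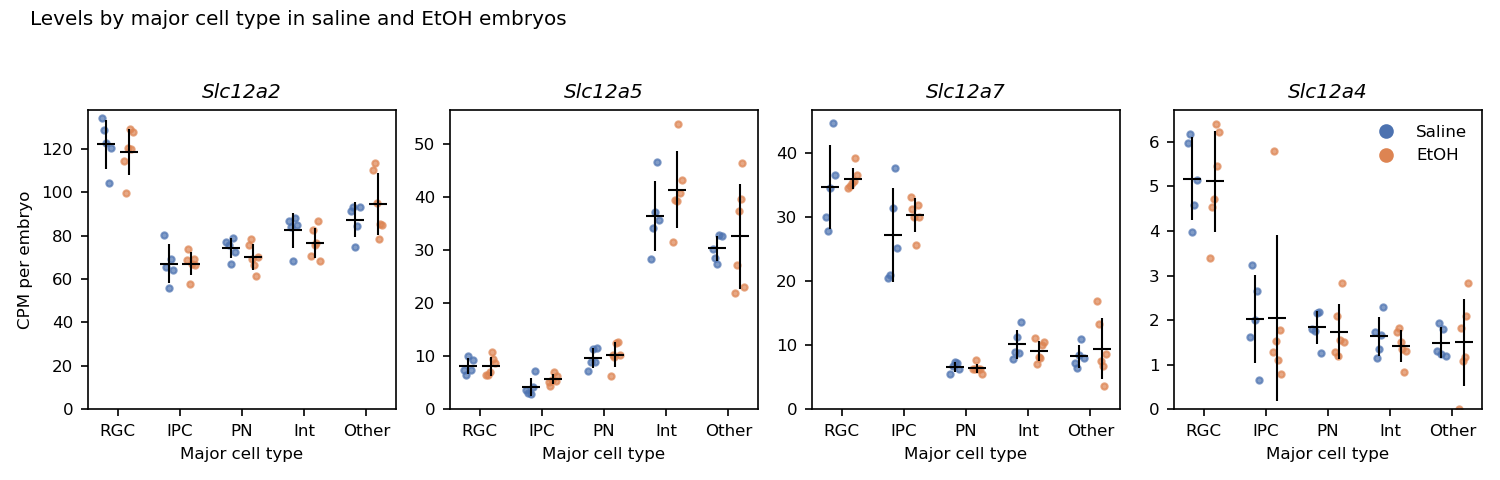
CPM per embryo (y axis) of the 4 genes in 5 major cell types (x axis), with saline embryos in blue and EtOH embryos in orange and the mean ± SD in black. The saline and EtOH points overlap in all 20 pairs of gene and type.

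Slc12a5 had positive log2 fold changes in 12 of its 14 cluster tests (11 with RLE size factors) and in 4 of 5 types, and none was called. Such counts of signs are not independent, since clusters share embryos and types are sums of clusters. The largest value, 0.63 in Cluster 25, rested on 2 EtOH embryos. In Int, saline embryos had 28.4, 34.2, 35.7, 37.3 and 46.7 CPM and EtOH embryos 31.7 to 53.9 CPM with a median of 40.2, and the groups overlapped. The log2 fold change was 0.15 ± 0.12 (edgeR adjusted p = 0.461). In IPCs it was 0.40 ± 0.26 (0.378), from 4.16 ± 1.76 CPM in saline to 5.61 ± 0.95 CPM in EtOH. Batch 2 embryos had more Slc12a5 in Int than batch 1 embryos (42.4 against 33.5 CPM). Within each batch EtOH was above saline, by a log2 ratio of mean CPM + 1 of 0.18 in batch 1 and 0.15 in batch 2. Cluster 7, the Int cluster highest in Slc12a5, held 55 of 446 Int nuclei in E1-2 and 942 of 2272 in S2-1, and its part in these values was not tested.

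Slc12a7 was called in none of its 17 cluster tests, with log2 fold changes from -0.59 to 0.20. In RGCs, where it is highest, saline embryos ran from 27.7 to 44.6 CPM and EtOH embryos from 34.5 to 39.1 CPM, with a log2 fold change of -0.02 ± 0.10 (edgeR adjusted p = 0.920). In IPCs the 6 EtOH embryos lay between 25.6 and 33.1 CPM and the saline embryos between 20.4 and 37.5 CPM. Slc12a4 passed the filter in RGCs, PN and Int, with log2 fold changes of -0.06 ± 0.19, -0.13 ± 0.24 and -0.28 ± 0.24. Scaling by library totals alone moved the median log2 fold change of all genes to between 0.06 and 0.08 in types, and turned the sign of Slc12a4, Slc12a5 and Slc12a7 in RGCs.

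**Figure D5:**
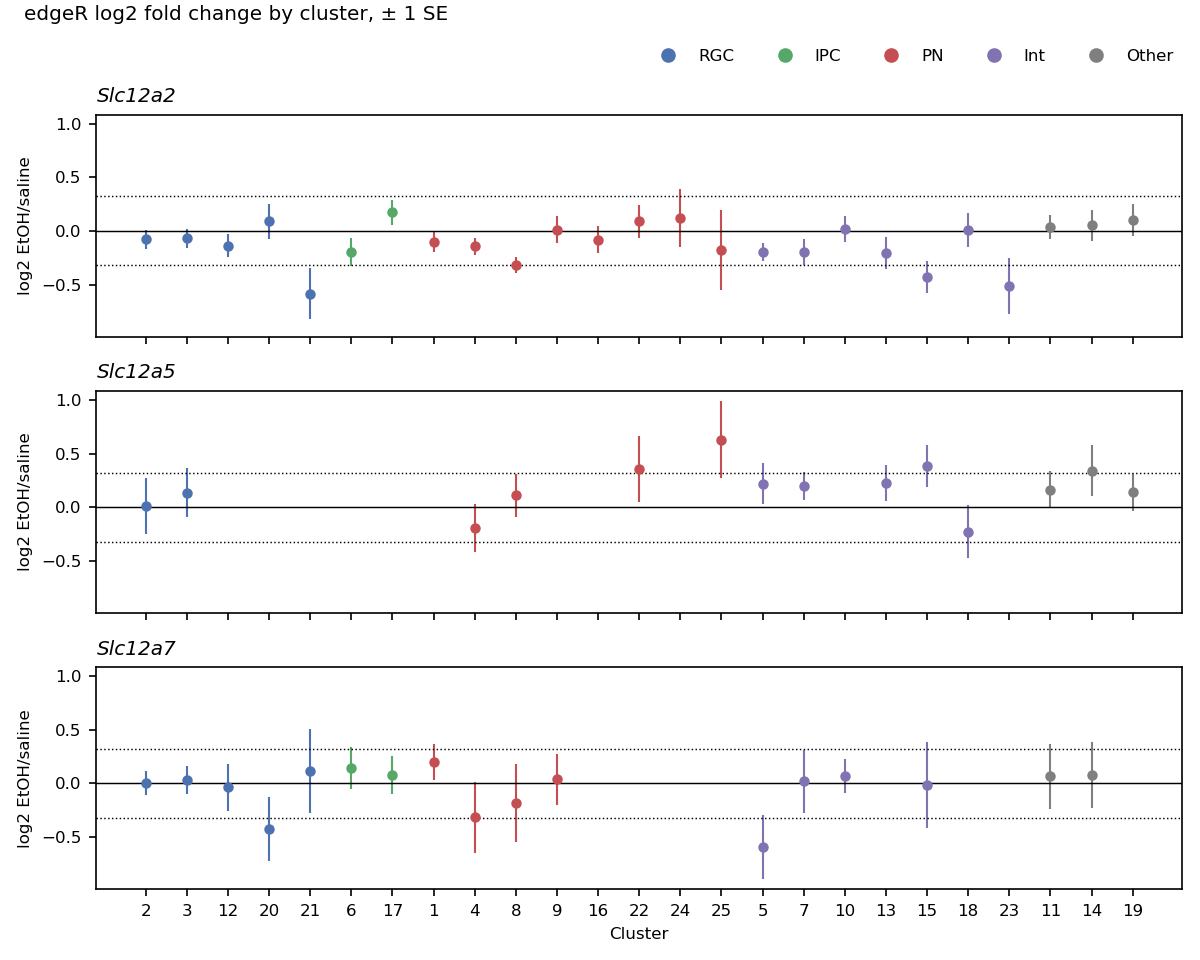
edgeR log2 fold change of EtOH against saline (y axis) with ± 1 SE for 3 genes in each cluster where they were tested (x axis), coloured by major cell type, with dotted lines at changes of 25% up and 20% down. Slc12a2 in Cluster 8 lies at -0.32 with a short error bar, and no test was called.

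The ratio of Slc12a2 to Slc12a5 was lower after EtOH in 20 of 25 clusters and 4 of 5 types. The clusters share embryos and the types are sums of clusters, so these counts are not independent. Of 30 exact permutation tests (two-sided, over all relabellings of the embryos that keep the group sizes), 0 passed an adjusted p of 0.05. An unadjusted p under 0.05 was reached in 2. In Cluster 7 the geometric mean was 1.11 in saline and 0.855 in EtOH embryos (exact permutation p = 0.0281, adjusted p = 0.541), with saline embryos at 0.940 to 1.39 and EtOH embryos at 0.688 to 1.00. In Cluster 15 it was 1.52 in saline and 0.839 in EtOH embryos (exact permutation p = 0.0433, adjusted p = 0.541), and the groups overlapped in both clusters. In Cluster 7 the difference within batches was -0.59 in batch 1 and -0.25 in batch 2 on the log2 scale.

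In IPCs the ratio was 16.5 in saline and 11.5 in EtOH embryos (exact permutation p = 0.0758, adjusted p = 0.330), and it was the one type in which leaving out the saline embryo S2-4 gave a call, with a difference of -0.74 against -0.52 on the log2 scale. Within batches the difference in IPCs was -0.61 and -0.40. The Slc12a5 counts behind it were 6 to 33 UMIs per embryo, which are not told from background. The thinned share of IPCs with Slc12a5 went the other way from its CPM, with 1.07% in saline and 0.788% in EtOH embryos, so that no change is read from this ratio. In Int the ratio was 2.28 against 1.87 (exact permutation p = 0.132), in PN 7.80 against 6.93 and in RGCs 15.1 against 14.6. Dam means gave -0.51 in IPCs and -0.28 in Int on the log2 scale.

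The share of nuclei with a UMI, thinned to 2000 UMIs, was lower after EtOH in 13 of 20 pairs of gene and type, and 0 of 20 exact permutation tests passed the adjusted threshold, with 1 at an unadjusted p under 0.05. That was Slc12a2 in PN, at 13.3% ± 0.96 in saline and 12.005% ± 0.91 in EtOH embryos (exact permutation p = 0.0411, adjusted p = 0.613). Without thinning, 19 of 20 shares were lower in the shallower EtOH libraries and 4 passed. Whether the change after EtOH differed between RGCs, PN and Int was tested for each gene by 12 exact permutation tests, and none reached an unadjusted p of 0.05, with 0.247 as the smallest, for Slc12a5 in RGCs against Int.

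The genes around the cotransporters were read from 6 lists of 55 genes (other Slc12 family, WNK and SPAK kinases, sodium pump subunits, bicarbonate transporters and carbonic anhydrases, chloride channels, and partners and transcription factors of KCC2). In major cell types 5 of 227 tests were called (2.20%, against 3.75% over all genes), 4 higher and 1 lower after EtOH, and the median log2 fold change was -0.04. In clusters 3 of 890 tests were called (0.337%, against 0.792%), all lower. The other Slc12 genes and the kinase and chloride channel lists had 0 calls in types.

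Slc4a3, the anion exchanger AE3 that brings chloride in against bicarbonate, was called higher in Int and in Other. In Int the saline embryos ran from 20.4 to 33.2 CPM with a median of 23.7, and the EtOH embryos from 30.7 to 36.3 CPM with a median of 34.6, a log2 fold change of 0.37 ± 0.09 (edgeR adjusted p = 0.0364). In Other the groups did not overlap, at 23.8 to 33.6 CPM and 37.3 to 42.0 CPM, and every EtOH embryo was above every saline embryo for 1.26% of all genes tested there (0.44 ± 0.09, adjusted p = 0.0456). Car11, a carbonic anhydrase-related protein without the enzyme's activity, rose in Int, where its groups did not overlap (1.56% of all genes tested there had every EtOH embryo above every saline embryo), from 6.85 ± 1.498 to 10.5 ± 1.45 CPM (0.58 ± 0.14, adjusted p = 0.0355). Bdnf, a growth factor that regulates KCC2, rose in Int from 2.61 ± 0.57 to 4.34 ± 0.96 CPM (0.72 ± 0.19, adjusted p = 0.0432). Its groups overlapped there, at 2.07 to 3.26 CPM in saline and 3.10 to 5.89 CPM in EtOH embryos.

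Atp1b3, a beta subunit of the sodium pump that keeps up the cation gradients, fell in PN from 28.1 ± 4.56 to 22.8 ± 2.18 CPM (log2 fold change -0.35 ± 0.09, edgeR adjusted p = 0.0376). Its groups overlapped too, at 23.6 to 33.1 CPM in saline and 19.8 to 26.4 CPM in EtOH embryos. The 5 calls in types had the same direction in every alternative run but were called in 4 to 9 of 18 or 19 of them, and none was called with counts summed per dam. With batch as a term, Bdnf in Int and Slc4a3 in Other were not called. Neto1 and Car10 in early PN (Cluster 9) and Clcn5 in Cluster 8 were the 3 genes called in clusters, named here after their values were seen. Their log2 fold changes were -1.85 ± 0.36, -1.79 ± 0.41 and -0.43 ± 0.11.

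Kinases that phosphorylate the cotransporters, or act on those that do, were read beside them. The 7 genes of the kinase list tested in types had a median log2 fold change after EtOH of -0.07 over 35 tests. Only Wnk1 and Stk39 of them are shown here. Wnk1 had 389 ± 28.3 CPM in RGCs, 318 ± 22.1 in IPCs and 211 ± 14.4 in PN, and Stk39, which encodes SPAK, had 372 ± 41.0 in RGCs and 168 ± 15.4 in PN. Wnk1 had log2 fold changes after EtOH of -0.24 to -0.15 over the 5 types and Stk39 of -0.22 to -0.08, and none was called. The smallest edgeR adjusted p was 0.0444, for Wnk1 in Int (-0.24 ± 0.07, a fold inside the threshold), and the other 9 were 0.0614 to 0.637. Among other Slc12 genes, Slc12a1 had mean levels of 0.464 to 1.16 CPM, Slc12a3 of 0.0850 to 0.533 CPM, Slc12a8 of 6.25 to 9.93 CPM and Slc12a9 of 15.8 to 23.3 CPM over the 5 types.

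Slc12a4 lies at chr8:105943590-105966097 on the minus strand, Slc12a5 at chr2:164960802-164999731 and Slc12a7 at chr13:73733094-73816754, both on the plus strand of GRCm38 (GENCODE M21), and Slc12a2 spans chr18:57878678-57946821 on the plus strand. The counts are per gene and do not separate introns, exons and untranslated regions. The Slc12a7 window printed above starts inside the GENCODE span of that gene, because RefSeq places the start sites there.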

How the data were processed

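Nuclei of 5 saline and 6 EtOH embryos were profiled by snRNAseq (10x 3' chemistry); a further labelled saline embryo was not used here. Alignment to mm10 was done by the authors in Cell Ranger with its defaults, after which they filtered nuclei and genes, removed low-transcript, thalamic and non-neuronal clusters, and deposited raw UMI counts of 23513 genes per embryo and cluster. Cluster numbers and names are theirs. Doublets were not called here, and the methods name no caller.

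Counts were summed per embryo and cluster or major cell type, with at least 10 nuclei and at least 2 embryos per group. EtOH against saline was tested with edgeR 4.0.16 (TMM, filterByExpr, glmQLFit robust) in R 4.3.3, with Benjamini-Hochberg adjustment, and DESeq2 1.42.0 was an alternative. Ratios (0.5 added to counts), shares and differences between types were tested by exact permutation over embryos (all relabellings that keep the group sizes, and those within batches). Both functions were tested on simulated data. Littermates were treated as independent, so p-values measure the spread between embryos of 2 dams per treatment. Totals of 14078316 to 83061737 UMIs per embryo set the precision. Sequences and coordinates are from RefSeq and GENCODE M21 on GRCm38. Members, lists and tests were chosen with earlier results of these data known. The text names the 4 genes, every listed pathway gene called in a major cell type, and the 5 most similar genes per member, except items not reported here. Python 3.11.15, NumPy 2.4.6, pandas 2.3.3 and matplotlib 3.10.9 were used.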

Additional observations from a re-analysis of the deposited data

Results flagged for a closer look

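Of 50 groups of embryos examined for a sample far from the rest, 3 had one, and chance alone gives about 1 in 20. The saline embryo S2-1 had 68.4 CPM of Slc12a2 in Int nuclei, below the other saline embryos at 83.8 to 88.2 CPM. The EtOH embryo E1-2 had 5.79 CPM of Slc12a4 in IPC nuclei, above the others at 0.787 to 1.77 CPM, and this gene has few UMIs in IPCs. The EtOH embryo E2-1 had 7.62 CPM of Slc12a7 in PN nuclei, above the others at 5.50 to 6.26 CPM.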

How the results depend on the processing

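No member was called in major cell types under any alternative run. In clusters, the count of member calls was 0 in the main analysis, 1 by DESeq2 (2.61% of tests over all genes), 1 with RLE size factors (0.81%), 3 without a filter on low counts (2.07%) and 1 with no fold threshold (0.869%), and 0 under all other alternatives, each embryo left out included. Slc12a2 in Cluster 8 was the call by DESeq2 (log2 fold change -0.32) and with RLE size factors (-0.32), and without the filter (-0.36) Clusters 15 and 21 joined it. The fit with the replicate block, which leaves out E2-3, called 0 members in clusters and 0 in types, gave an adjusted p of 0.140 for Slc12a2 in Cluster 8 and called none of the 5 pathway results. Embryos with the same number share no animal, and their deviations from group means correlated between -0.22 and 0.04 in PN, -0.24 and 0.34 in RGCs and -0.13 and 0.10 in Int. Scaling by library totals alone, chosen after seeing the data, called 0 in clusters and types. The ratio tests gave 0 calls within batches and with a pseudocount of 1, and between 0 and 1 when each embryo was left out in turn (1 without S2-4, in IPCs). The difference in ratio turned positive in RGCs without E2-2, S1-1 or S1-2 (range over embryos left out -0.130 to 0.0455), and negative in Other without E1-1, E1-2 or E2-4 (-0.0992 to 0.187). Shares gave 4 calls with no thinning and 0 at 1000 UMIs, within batches and without any embryo. The RGC to PN log2 ratio of Slc12a5, -0.26 on the log2(CPM + 1) scale, went to 0.0285 after thinning nuclei to 2000 UMIs, and to -0.90 with clusters weighted equally. The other ratios, the levels in the highest clusters and the differences between types moved by less than the spread between embryos or stayed without a call. The causes were not tested. The filter on low counts left 58 of 100 pairs of member and cluster to be tested in the main analysis.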
